A study of Mus musculus with 12 samples.

Results

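Reprogrammed epiblast cells at passage 24 (rEpiES passage 24) were set against cultured epiblast (cEpi) on 6 of the 12 arrays of the series, 3 arrays a side, picked by their titles. Each array carried 33012 probes. Per the labels, epiblast was dissected from mouse embryos of day 5.5 to 7.5. The cross is given only with the ES arrays: 129/sv or ROSA 129/Sv mothers and fathers carrying the Oct4-△PE-EGFP transgene, a green reporter under Oct4 control. The rEpiES cells had been grown in medium with 20% serum and 1000 units/ml of LIF on mitomycin-treated mouse embryonic fibroblasts, and descended from clones picked for reporter-positive cells that had appeared after 14 to 35 days. They are therefore a selected population grown on feeder cells. For cEpi the labels give the dissection and dissociation and no culture medium, feeder layer or passage. The labels do not say how the 3 arrays of each group relate (lines, cultures or repeats), and p-values here cover only array-to-array spread, which may be technical. ES cells and rEpiES at passage 4, also 3 arrays each, are given beside some results as levels only.

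Epiblast of the post-implantation embryo is primed: it still expresses the pluripotency factor Oct4 but answers to signals that turn it into primitive streak, endoderm and ectoderm. ES cells stand for the earlier, naive state, in which LIF signalling and factors such as those of the Klf family hold differentiation back. The retinoic acid, WNT and BMP pathways pattern the epiblast, and each is tuned by secreted antagonists and by enzymes that make or break down the ligand.

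Levels below are the authors' quantile-normalised signals on a log2 scale, on which a difference of 1 is 2-fold, and changes are rEpiES passage 24 minus cEpi. A probe was detected on an array at a signal-to-noise score of 3 or more. Of 33012 probes, 14422 to 15637 were detected on the passage 24 arrays and 15726 to 16537 on those of cEpi. The median intensity before normalisation was 665.6 to 713.5 at passage 24 and 765.1 to 820.2 in cEpi. The 14985 probes detected on all 3 arrays of a side were tested with limma. Of these 76.0% were called at an adjusted p under 0.05, 38.3% higher and 37.7% lower. So many calls make a bare call uninformative, and gene lists are read by calls that are also at least 2-fold. Such calls took 16.3% of tested probes higher (2449) and 20.4% lower (3057). Among the 8717 tested genes, each by its brightest tested probe, the median change was -0.01, with 15.7% at least 2-fold higher and 21.3% lower. A fold written as "at least" is a nominal bound against background, used where none of the dimmer side's 3 arrays detected the probe. It sets no undetected value below the lowest detected signal of its array. For probes such as those of Dkk1 (193) and Mael (31.8) it equals the fold of the measured values. It does not allow for noise around an undetected signal. With median scaling in place of the authors' normalisation the median over probes was -0.19 and 39.9% of calls were higher. With no further normalisation these were -0.38 and 31.1%, against 50.4% higher here.

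The arrays of both groups differ in how their files were laid out, so group and file layout cannot be told apart. Passage 24 shares its layout with ES, and cEpi shares its own with passage 4. Of all probes 390 parted along the layouts by over 1 log2, 174 brighter and 216 dimmer in ES and passage 24, and 332 of them were among the tested probes. A second set stood apart on the passage 24 arrays alone. These were 84 probes lying over 3 log2 from the mean of the other 3 groups, which lay within 1.5 of each other, 38 brighter and 46 dimmer. At over 5 log2 there were 18 brighter and 23 dimmer on the passage 24 arrays, against 2 and 1 on the cEpi arrays and 1 and 1 on the ES arrays. At over 3 log2 the cEpi arrays alone held 187 such probes, the ES arrays 63 and the passage 4 arrays 2. In the passage 24 set the probe of Ppp2ca, which encodes the catalytic subunit of the phosphatase PP2A, read 8.47, 8.35 and 8.19 at passage 24 and 18.55, 18.54 and 18.56 in cEpi. Its means were 18.39 at passage 4 and 18.08 in ES, so only the passage 24 arrays were low. The probe of Tfec, a transcription factor gene, read 18.54, 18.35 and 18.54 at passage 24 and 8.10, 8.05 and 9.35 in cEpi, with 8.39 at passage 4. Here only the passage 24 arrays were high. The set was picked by group means, and for 2 of the 19 brighter named probes, Car10 and Trpm6, 1 array carried the mean. Car10 read 7.89, 17.94 and 8.41 and Trpm6 9.23, 16.65 and 7.46 at passage 24, and neither was tested. For Rpl34, a ribosomal protein gene, a probe of this set was detected on no passage 24 array and changed by -4.41 ± 0.18 (SE), while its brighter probe changed by 0.34 ± 0.08 and was called higher. Of the 15 largest rises 9 were probes of the passage 24 set (Tfec, Enpep, Dnajc27, Agr2, Olfr1061, Man2a2, Clrn3, 2310034C09Rik and Olfr794) and 2 more (Olfr1238 and Dgke) followed the layouts. Of the 15 largest falls 7 belonged to the passage 24 set (Ppp2ca, Glod4, Gfpt2, Sdhb, Cnih1, Bcl9l and Psph), while Cer1 and Asb4 parted along the layouts by over 1 log2. Cer1 and Asb4 also differed between groups of the same layout, with passage 4 minus cEpi at -5.11 and -4.72. Their falls are thus not confined to the step between layouts. The cause was not tested. Lists are given with these probes, and without them where that moves a result.

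**Figure D1:**
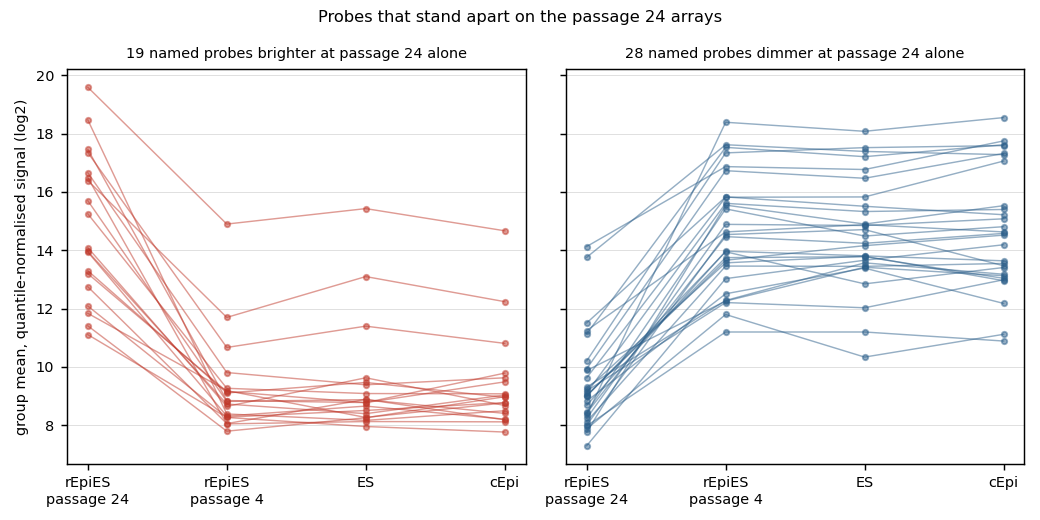
Group means (quantile-normalised signal, log2) of the 47 named probes that stand apart on the passage 24 arrays, each line 1 probe across rEpiES passage 24, rEpiES passage 4, ES and cEpi. In the left panel are the 19 brighter probes and in the right panel the 28 dimmer ones, with the other 3 groups near each other in both. The passage 24 means of Car10 and Trpm6 rest on 1 high array each.

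With both sets left out, the largest rises were of Dppa4, Tcl1, Nphs1, Enox1, Zfp42, Mael, Cd4, Rpl39l, Phf11d, Pycard, Jade1, Dazl, Dppa2, Triml1 and Dnmt3l, and the largest falls of Sox17, Dkk1, Cyp26a1, Foxq1, Lhx1, Mgp, Cfc1, Irs4, Foxa2, Coch, Slc39a8, Cxcr4, Pyy, Pkdcc and Spink1. This ranking was made after the sets had been seen. Dppa4, which encodes a chromatin protein of pluripotent cells, read 16.55, 16.52 and 16.67 at passage 24 and 11.37, 10.80 and 11.21 in cEpi. It rose by 5.45 ± 0.15 (adjusted p = 1.88e-06), with every passage 24 array above every cEpi array. Nphs1, best known for the kidney slit-diaphragm protein nephrin, read 14.03, 14.01 and 14.02 at passage 24, against 9.01, 8.5 and 8.30 in cEpi, where 1 array detected it. It rose by 5.42 ± 0.18 (adjusted p = 3.34e-06), and its means were 12.59 at passage 4 and 10.64 in ES. Cd4, the gene of a T-cell coreceptor, read 14.14, 14.19 and 14.17 at passage 24 and 9.0, 9.38 and 9.29 in cEpi. Its passage 4 mean of 10.33 and ES mean of 10.80 lay nearer to cEpi.

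**Figure D2:**
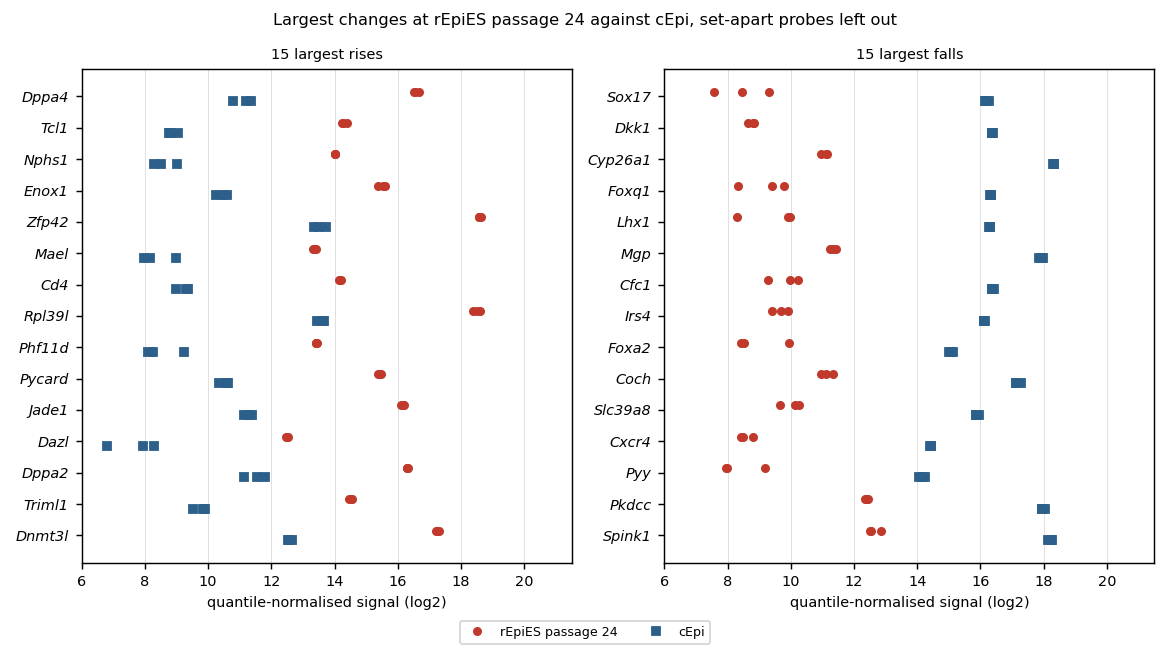
Quantile-normalised signal (log2) on each array for the 15 largest rises and the 15 largest falls outside the set-apart probes, with 3 rEpiES passage 24 arrays (circles, upper row of each gene) and 3 cEpi arrays (squares, lower row). The groups overlap for none of these 30 genes, which follows from picking them by the size of their change on these arrays.

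The fixed anchor genes of both states were read first as a check of the labels. Pou5f1, the Oct4 gene, read 18.91, 18.94 and 18.81 at passage 24 and 17.67, 17.72 and 17.58 in cEpi, a rise of 1.23 ± 0.07 (adjusted p = 1.84e-05). Sox2, its partner factor, rose by 1.40 ± 0.09, so both groups carried these core factors and passage 24 the higher level. Klf4, of the naive list, rose by 1.51 ± 0.06. Fgf5, a growth factor gene that marks primed epiblast, read 12.45, 12.39 and 12.54 at passage 24, against 17.36, 17.45 and 17.39 in cEpi. It fell by 4.94 ± 0.06 (adjusted p = 3.96e-07), to below its passage 4 mean of 14.51 and its ES mean of 15.85. Otx2, a homeobox factor of the primed state, fell by 1.28 ± 0.06. Against the direction of these epiblast markers, Pou3f1 (Oct6) rose by 1.56 ± 0.06, with a passage 4 mean of 12.57 beside 14.07 at passage 24 and 12.51 in cEpi. That probe follows the layouts. Nodal read 14.13, 14.02 and 14.16 at passage 24 and 14.07, 14.27 and 14.18 in cEpi, overlapping, and was not called (adjusted p = 0.441). The E-cadherin gene Cdh1 was not called either (0.08 ± 0.06, adjusted p = 0.318), although with no further normalisation its change was -0.17. Dnmt3a was not called (adjusted p = 0.414). Dnmt3b, by its brighter probe, rose by 0.39 ± 0.07 and Lin28a by 0.45 ± 0.05, both calls lost with no further normalisation. The other Dnmt3b probe changed by 0.15 ± 0.07 and was not called (limma adjusted p = 0.113). Myc changed by -0.21 ± 0.07 (adjusted p = 0.0322), a call lost in 7 of 17 alternatives. The N-cadherin gene Cdh2 read 11.34, 11.46 and 11.27 at passage 24 and 16.23, 16.03 and 16.17 in cEpi, and fell by 4.79 ± 0.08. Vim, the gene of the mesenchymal filament vimentin, fell by 2.51 ± 0.07.

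Naive pluripotency genes carried the strongest list shift upward: 16 of 18 tested members were at least 2-fold higher and 0 lower, with a median of 3.79. Tcl1, a coactivator of Akt kinase, read 14.39, 14.26 and 14.25 at passage 24, where its level was above the ES mean of 11.46, and 8.80, 8.76 and 9.04 in cEpi, where it was not detected. Zfp42 (Rex1) read 18.56, 18.58 and 18.63 at passage 24 and 13.50, 13.36 and 13.74 in cEpi, so the gene that marks the naive state was still detected on every cEpi array. Of the core list 6 of 13 were at least 2-fold higher, led by Dppa4 and its neighbour Dppa2 (4.81 ± 0.17).

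Germ line genes are silenced by DNA methylation and repressor complexes in epiblast. Of 22 named on the arrays 15 were tested, and 12 of those were at least 2-fold higher and 2 lower, with a median of 3.04. Only 7 were detected on all 6 arrays, 4 of them at least 2-fold higher, with a median of 1.09, so most of the shift was measured against background in cEpi. Mael, a piRNA-pathway gene, read 13.34, 13.31 and 13.43 at passage 24 and 8.16, 7.98 and 8.98 in cEpi, where it was detected on no array. It was at least 31.8-fold higher (adjusted p = 1.52e-05). Dazl, an RNA-binding regulator of germ cells, read 12.47, 12.51 and 12.53 at passage 24 and 7.95, 8.28 and 6.81 in cEpi, which did not detect it, and was at least 23.4-fold higher (adjusted p = 7.23e-05). Tdrd12, also of the piRNA pathway, rose by 4.55 ± 0.08. Sycp1, which encodes a protein of the synaptonemal complex in meiosis, read 12.55, 12.51 and 12.54 at passage 24, against 8.59, 8.82 and 8.53 in cEpi, and was at least 14.8-fold higher (adjusted p = 1.05e-06). The 2 members that fell were Kit, which encodes the stem cell factor receptor (-2.27 ± 0.08), and Prdm1, a transcriptional repressor that specifies germ cells (-2.15 ± 0.10). Dnmt3l, the cofactor of the de novo methyltransferases that is also expressed in germ cells, read 17.22, 17.24 and 17.31 at passage 24 and 12.55, 12.53 and 12.65 in cEpi, and rose by 4.68 ± 0.06.

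The promoters of the germ line genes were searched for short motifs. The letters CACGTG (an E-box, its own reverse complement) were searched in the 300 bases from 250 before to 50 after the first RefSeq start of each gene (GRCm38.p6). They were present in 12 of the 20 germ line genes with a promoter in the table (60.0%), in 1957 of all 27025 genes (7.24%) and in 737 of 7125 tested genes (10.3%). Among the tested genes the share was 10.7% for those at least 2-fold higher and 7.28% for those at least 2-fold lower. Germ line genes at least 2-fold higher held the letters in 6 of 10 promoters (60.0%), the same share as the whole germ line list. The letters thus did not set the rising members apart from the rest of that list. Dazl and Tdrd12 rose and held none. The 12 included genes that did not reach 2-fold: Ddx4, an RNA helicase of germ cells, rose by 0.77 ± 0.06, and Tdrd1, of the piRNA pathway, was detected on no array of either group. Both were named after their values were seen. The match is a description of these letters and not evidence of binding. CG pairs were frequent, with a median of 20 per germ line promoter against 7 over all genes and 20 over tested genes. The 250 bases upstream of the start of 4 rising members are shown with the E-box in capitals. They lie at chr1:166238745-166238994 on the minus strand (Mael), chr3:102936101-102936350 on the minus strand (Sycp1), chr5:138280259-138280508 on the plus strand (Stag3) and chr3:95559427-95559676 on the plus strand (Hormad1).
Mael: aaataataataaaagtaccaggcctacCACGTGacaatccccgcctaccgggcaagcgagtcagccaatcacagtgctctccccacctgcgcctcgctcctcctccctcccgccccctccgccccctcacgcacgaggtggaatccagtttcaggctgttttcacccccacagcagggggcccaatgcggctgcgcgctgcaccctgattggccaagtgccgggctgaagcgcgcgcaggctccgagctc
Sycp1: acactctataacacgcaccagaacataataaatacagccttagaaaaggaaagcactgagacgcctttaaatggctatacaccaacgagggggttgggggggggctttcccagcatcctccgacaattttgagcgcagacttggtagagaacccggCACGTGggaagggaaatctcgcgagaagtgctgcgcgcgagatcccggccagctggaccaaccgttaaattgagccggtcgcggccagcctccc
Stag3: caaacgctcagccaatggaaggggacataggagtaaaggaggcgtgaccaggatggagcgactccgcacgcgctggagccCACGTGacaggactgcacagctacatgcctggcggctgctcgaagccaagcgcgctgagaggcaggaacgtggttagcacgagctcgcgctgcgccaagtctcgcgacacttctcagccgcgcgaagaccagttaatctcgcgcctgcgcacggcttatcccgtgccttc
Hormad1: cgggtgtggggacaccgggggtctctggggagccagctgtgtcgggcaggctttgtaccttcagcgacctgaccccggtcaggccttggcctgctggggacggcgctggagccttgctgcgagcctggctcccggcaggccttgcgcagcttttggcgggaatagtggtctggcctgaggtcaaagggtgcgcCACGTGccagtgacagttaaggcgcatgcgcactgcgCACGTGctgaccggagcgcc
Stag3 and Hormad1, named for this motif and chosen after their values were seen, encode a meiotic cohesin subunit and a protein of the meiotic chromosome axis, and rose by 3.04 ± 0.18 and 3.54 ± 0.47. The octamer ATGCAAAT, the classic binding letters of Oct factors, was in 0 of the 20 germ line promoters, in 1 of 11 naive promoters (that of Zfp42) and in 1.75% of all.

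**Figure D3:**
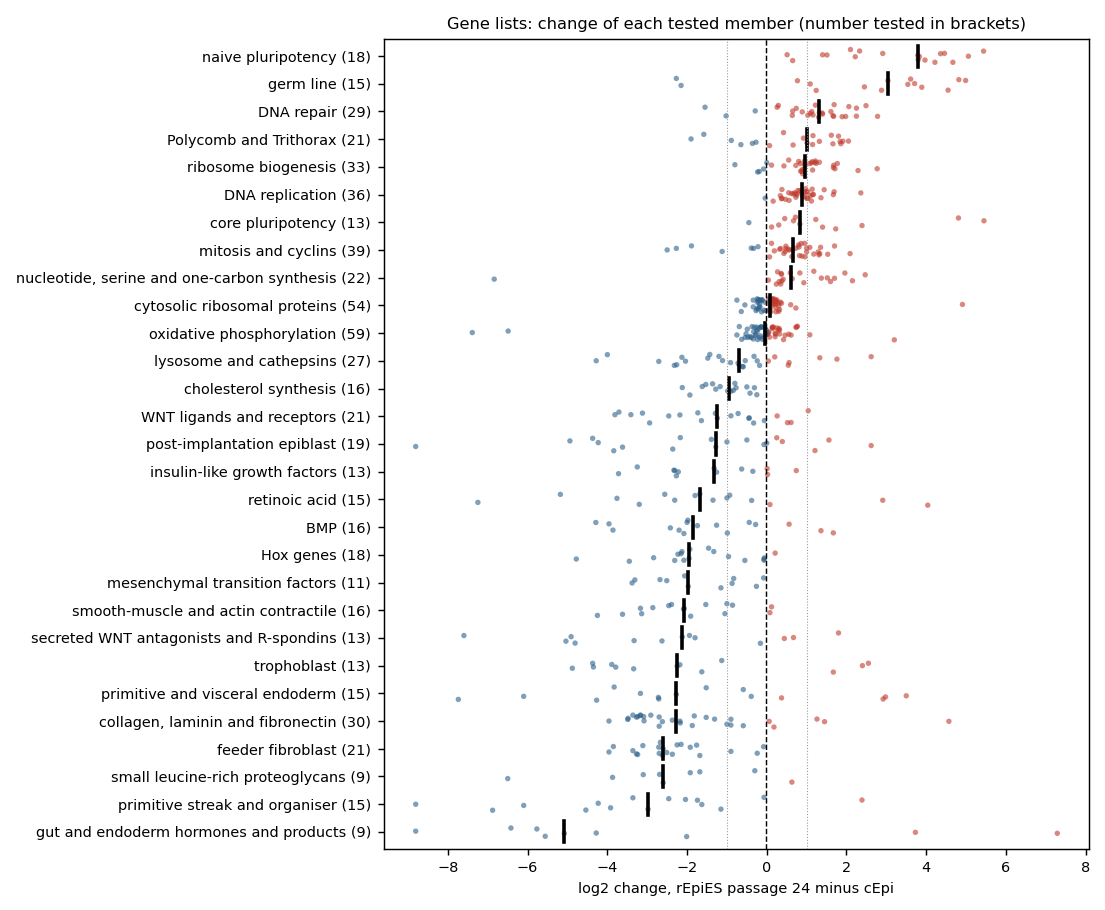
Log2 change (rEpiES passage 24 minus cEpi) of each tested member of 29 gene lists, with the list median as a black bar, the median of all tested genes as a dashed line and 2-fold as dotted lines. Naive and germ line genes have the highest medians, 3.79 and 3.04, and gut and endoderm products the lowest, -5.08, followed by primitive streak genes at -2.98.

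In the retinoic acid list more genes were lower than higher at passage 24, while Stra8 and Rarg were higher. Retinoic acid is made from retinol that carriers bring into the cell, and the cytochrome P450 enzyme of Cyp26a1 breaks it down. Of 16 named genes 15 were tested, and 9 were at least 2-fold lower and 2 higher, with a median of -1.68 (-1.35 without the set-apart probes). Of the 7 detected on all 6 arrays 3 were lower and 1 higher, with a median of -1.0, so most of the falls were measured against levels near background at passage 24. Cyp26a1 read 10.96, 11.10 and 11.15 at passage 24 and 18.33, 18.28 and 18.34 in cEpi, where it was among the bright probes. It was 152-fold lower (change -7.25 ± 0.07, adjusted p = 3.27e-07), and its means of 14.54 at passage 4 and 15.30 in ES lay between the groups. Stra6, the membrane receptor for retinol-binding protein, read 8.92, 8.17 and 8.82 at passage 24, detected on none, and 12.42, 12.24 and 12.53 in cEpi. It was at least 13.6-fold lower (adjusted p = 2.09e-05), and Rbp4, retinol-binding protein itself, changed by -5.18 ± 0.33 by a probe that follows the layouts. Dhrs3, a reductase that returns retinal to retinol, fell by 3.20 ± 0.14. The genes that made the opposite move were Stra8, a germ-cell gene induced by retinoic acid, and Rarg, a retinoic acid receptor gene. Stra8 read 11.33, 11.98 and 11.28 at passage 24 and 7.78, 6.71 and 7.99 in cEpi, which did not detect it, and was at least 14.7-fold higher (adjusted p = 0.000173). Rarg read 13.98, 14.02 and 14.21 at passage 24 and 11.03, 11.15 and 11.31 in cEpi, a rise of 2.91 ± 0.10. Aldh1a3 and Aldh1a1, which encode enzymes that make the ligand, were among the 9, at least 5.88-fold and at least 4.87-fold lower. They were chosen after their values were seen. Aldh1a2, another such gene on the arrays, was not chosen, so the pair does not stand for ligand synthesis as a whole.

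The Cyp26a1 promoter holds a direct repeat of AGTTCA with 5 bases between the copies, the spacing of a known element of retinoic acid receptors, on the reverse strand. It was searched on both strands, and was chosen after the values were seen. Of 27025 promoters 7 held it (0.0259%), and Cyp26a1 was the only one of 7125 tested genes. Only these exact letters were searched, so the counts do not show how common other forms of the element are. The letters match the Cyp26a1 promoter itself and were not among the motifs planned. Its hit and their rarity elsewhere are therefore a description, not evidence of binding or of a response. The 250 bases before its start, at chr19:37697558-37697807 on the plus strand (GRCm38.p6, RefSeq), are shown with the repeat in capitals.
Cyp26a1: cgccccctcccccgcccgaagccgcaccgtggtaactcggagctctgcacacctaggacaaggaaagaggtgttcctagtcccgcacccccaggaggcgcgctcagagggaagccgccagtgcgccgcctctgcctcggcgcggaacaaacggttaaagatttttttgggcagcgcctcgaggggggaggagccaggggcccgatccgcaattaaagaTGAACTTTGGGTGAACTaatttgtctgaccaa

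Secreted WNT antagonists were lower together with WNT ligands and receptors. Of 13 tested antagonists and R-spondins 9 were at least 2-fold lower and 1 higher, with a median of -2.12, and of 21 ligands and receptors 11 were lower and 1 higher, with a median of -1.24. Dkk1, which blocks the LRP co-receptors, read 8.84, 8.66 and 8.81 at passage 24 and 16.39, 16.36 and 16.35 in cEpi. It was detected on no passage 24 array and was at least 193-fold lower (adjusted p = 3.27e-07). Sfrp5 and Frzb, decoys that bind WNT proteins, were at least 32.8-fold and at least 30.1-fold lower. Rspo3, which amplifies WNT signals as the other R-spondins do, read 8.63, 8.59 and 8.58 at passage 24, against 13.44, 13.39 and 13.41 in cEpi, and was at least 28.0-fold lower. Wnt2 was at least 13.1-fold lower and Wnt4, a probe of the passage 24 set, changed by -3.81 ± 0.26. The receptors Fzd1 and Fzd8 changed by -3.41 ± 0.09 and -3.12 ± 0.25, both called lower. In the list of nuclear WNT effectors and targets 3 of 9 tested genes were at least 2-fold lower and 1 higher. These were 33.3% and 11.1%, beside 21.3% and 15.7% over all genes. The median was -0.03, and -0.33 with median scaling and -0.52 with no further normalisation. Without the set-apart probes 2 of 7 were lower and 0 higher. From this list the target gene Lgr5, which encodes a receptor, read 7.23, 7.85 and 7.45 at passage 24 and 12.68, 12.63 and 12.67 in cEpi, and was at least 31.9-fold lower. Tcf7l1, a repressor of WNT targets in ES cells, fell by 1.35 ± 0.07. Lef1 changed by 1.15 ± 0.06 and Sp5 by -3.38 ± 0.16, the first by a probe that follows the layouts and the other by a probe of the passage 24 set. With detection required on all 6 arrays, 3 of 6 antagonists and R-spondins were lower, with a median of -1.05, and 5 of 15 ligands and receptors, with a median of -0.45.

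In the BMP list, which holds ligands, receptors, Smads, targets and antagonists, 10 of 16 tested genes were at least 2-fold lower and 2 higher, with a median of -1.86. Over the 10 detected on all 6 arrays 6 were lower and 1 higher, with the same median. The ligand Bmp2 read 9.02, 7.75 and 6.97 at passage 24 and 12.10, 12.27 and 12.22 in cEpi, and fell by 4.29 ± 0.50 (adjusted p = 0.000432). The ligand Bmp4, chosen after its values were seen, read 14.95, 14.83 and 14.91 at passage 24, above all cEpi arrays at 13.24, 13.26 and 13.19, and rose by 1.67 ± 0.06. The other gene at least 2-fold higher was the ligand Bmp8b, at least 2.57-fold, also named after its values were seen. Msx1 and Msx2, homeobox targets of BMP, changed by -3.96 ± 0.51 and -3.86 ± 0.10 and were called lower, and Smad1, a transducer, changed by -2.42 ± 0.07 by a probe that follows the layouts. The antagonists Nog and Bambi, named after their values were seen, were at least 4.61-fold lower and 4.24-fold lower. In the Nodal and Activin list 2 of 12 were at least 2-fold higher and 4 lower. Gdf3, a Nodal-related ligand, rose by 3.97 ± 0.05 and Skil, a repressor of Smad signalling, by 2.27 ± 0.09, while Furin, a protease that matures Nodal, fell by 2.87 ± 0.07 and Inhba, the Activin A subunit, by 1.56 ± 0.06.

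**Figure D4:**
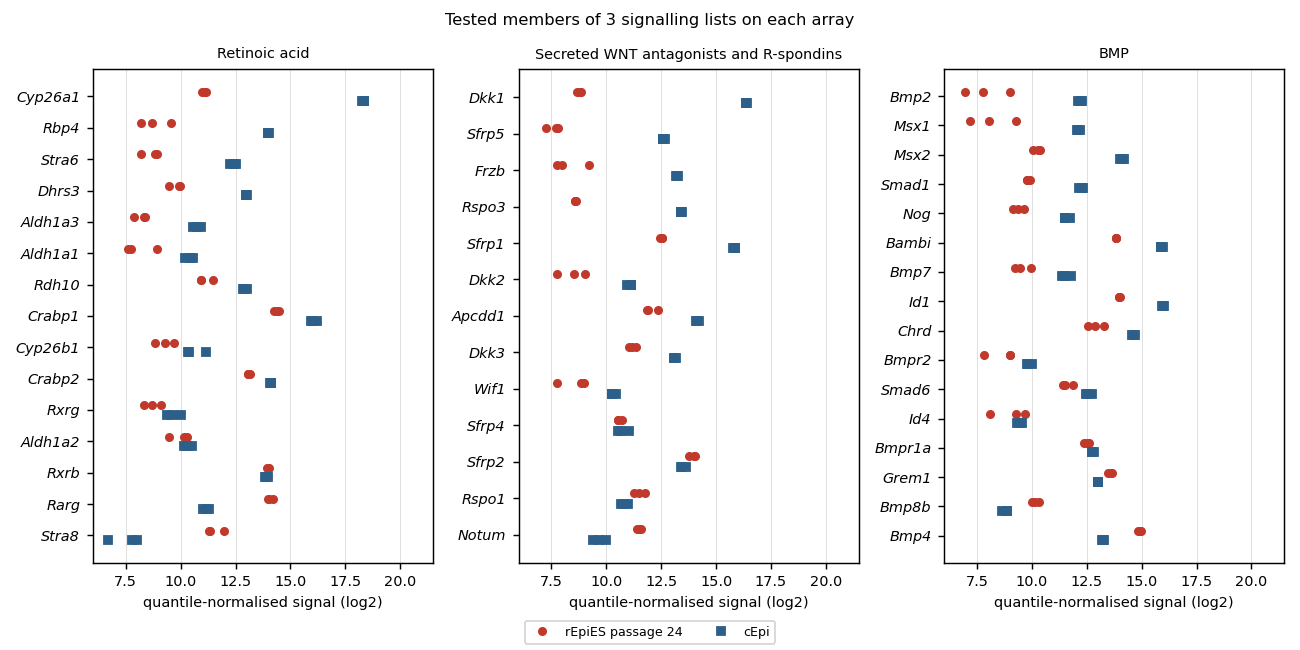
Quantile-normalised signal (log2) on each array for every tested member of the retinoic acid, secreted WNT antagonist and R-spondin, and BMP lists, ordered by change, with 3 rEpiES passage 24 arrays as circles and 3 cEpi arrays as squares. The cEpi arrays lie to the right for most members. All 3 passage 24 arrays lie to the right of all 3 cEpi arrays for the 8 members called higher, which are Stra8, Rarg, Notum (a probe that follows the layouts), Rspo1, Sfrp2, Bmp4, Bmp8b and Grem1.

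Fibroblast growth factor and LIF lists had small medians, 0.10 over 20 genes and 0.30 over 17. The first turned to -0.12 with median scaling and -0.31 with no further normalisation, and the LIF median to 0.22 and 0.03. In the first list 3 genes were at least 2-fold higher and 6 lower. In the LIF list 5 were higher (3 with no further normalisation) and 1 lower. Fgf8, a streak ligand, changed by -4.23 ± 0.14 and Fgf10 by -2.52 ± 0.30, while Etv5, a target of FGF signalling, rose by 2.72 ± 0.06. The LIF targets Pim1 and Pim3, kinase genes, read 14.15, 14.07 and 14.36, and 15.29, 15.23 and 15.43 at passage 24. In cEpi they read 11.33, 11.56 and 11.51, and 12.78, 12.88 and 12.63. They rose by 2.73 ± 0.10 and 2.55 ± 0.09, and both passage 4 means, 14.43 and 15.33, were close to those at passage 24. Cish, another target of JAK-STAT signalling, fell by 1.90 ± 0.15, and Jak1 changed by 3.18 ± 0.10 by a probe that follows the layouts.

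Genes of the primitive streak, endoderm and trophoblast were mostly lower. The streak list had 13 of 15 at least 2-fold lower and 1 higher, with a median of -2.98 (6 of the 8 detected on all 6 arrays were lower, median -3.17). Lhx1, an organiser factor, read 8.31, 9.99 and 9.91 at passage 24, with none detected, and 16.29, 16.30 and 16.26 in cEpi. Mixl1, a homeobox factor of the streak, fell by 4.54 ± 0.16 to 10.22, against 14.76 in cEpi, and its ES mean was 15.44. The exception to the list was the ligand gene Fgf17, which rose by 2.39 ± 0.16 and was named after its values were seen. Of 15 tested endoderm genes 9 were at least 2-fold lower and 3 higher, with a median of -2.27, and of the 7 detected on all 6 arrays 4 were lower and 1 higher, with a median of -1.52. Sox17, an endoderm factor, read 8.47, 7.56 and 9.32 at passage 24, with 1 array detecting it, and 16.16, 16.28 and 16.13 in cEpi, and fell by 7.74 ± 0.43. Gata6 changed by -3.83 ± 0.13 and Foxa2 by -6.10 ± 0.41. The 3 that were higher were Apoa2, Trf and Rhox5, of which Trf follows the layouts. The summed linear level of the 19 named endoderm markers was 281 to 288 (in units of 1000) at passage 24 and 754 to 777 in cEpi, and Afp and Apoa1 were detected on no array of either group.
Of 8 tested keratin genes 4 were at least 2-fold lower and 2 higher, with a median of -2.29 (-0.78 over 7 genes without the set-apart probe of Krt19). Krt8, Krt18 and Krt7 changed by -4.88 ± 0.10, -4.37 ± 0.06 and -3.89 ± 0.10, while Krt42 and Krt17 rose by 2.94 ± 0.09 and 2.27 ± 0.18. Krt8 read 14.07, 13.97 and 14.09 at passage 24 and 18.79, 18.87 and 19.11 in cEpi. Krt42 read 14.31, 14.33 and 14.31 at passage 24, against 11.43, 11.49 and 11.20 in cEpi, and neither gene's arrays overlapped. The trophoblast list, which shares Krt7, Krt8, Krt18 and Krt19 with them, had 9 of 13 at least 2-fold lower and 3 higher, and 5 of the 7 detected on all 6 arrays were lower. Its regulator Gata3 fell by 4.35 ± 0.40, and the factor genes Tfap2c and Esx1, named after their values were seen, rose by 2.40 ± 0.07 and 2.55 ± 0.17.
In the list of gut and endoderm hormones and products 7 of 9 were at least 2-fold lower and 2 higher, with a median of -5.08. Without the set-apart probes 4 of 5 were lower and 1 higher, and 2 genes, both lower, were detected on all 6 arrays. Pyy, a gut hormone, read 9.20, 7.98 and 7.95 at passage 24 and 14.04, 14.16 and 14.23 in cEpi, and was at least 54.4-fold lower (adjusted p = 2.62e-05). Cer1, a secreted antagonist that the list also holds, and Pga5, a pepsinogen, changed by -8.81 ± 0.56 and -6.42 ± 0.36, both by probes that follow the layouts. Within the layout of cEpi, the Cer1 mean was 12.08 at passage 4 and 17.19 in cEpi. Agr2, a probe of the passage 24 set, changed by 7.29 ± 0.08. Of 30 named Hox genes 18 were tested, and 12 were at least 2-fold lower and 0 higher, with a median of -1.94. Hoxb2 read 9.35, 9.01 and 8.92 at passage 24, with 1 array detecting it, and 13.96, 13.82 and 13.86 in cEpi, and fell by 4.78 ± 0.12, and Hoxa10 was at least 11-fold lower. Over the 5 Hox genes detected on all 6 arrays the median was -0.07, and the other 13 were undetected on at least 1 array.

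Matrix and contractile genes were mostly lower, and so were the markers of fibroblasts. Of 30 tested collagen, laminin and fibronectin genes 22 were at least 2-fold lower and 3 higher, with a median of -2.28. Of 9 small leucine-rich proteoglycan genes 7 were lower and 0 higher, with a median of -2.60, and of 16 smooth-muscle and actin genes 13 were lower and 0 higher, with a median of -2.08. Over genes detected on all 6 arrays the counts lower were 13 of 19 (matrix), 3 of 4 (proteoglycans, median -1.80) and 10 of 13 (contractile). Without the set-apart probes 8 of 11 contractile genes were lower. Col5a2, a fibrillar collagen, read 13.18, 13.23 and 13.28 at passage 24 and 17.21, 17.19 and 17.17 in cEpi, and fell by 3.96 ± 0.05. Acta2, smooth-muscle actin, read 9.68, 9.22 and 9.73 at passage 24 and 13.74, 13.82 and 13.82 in cEpi, and fell by 4.25 ± 0.15. Mgp, which encodes an inhibitor of matrix calcification, read 11.23, 11.34 and 11.42 at passage 24 and 17.93, 17.85 and 17.99 in cEpi, and was 96.8-fold lower. Podn and Prelp, matrix proteoglycans, were at least 13.7-fold and at least 8.60-fold lower. Of the 21 tested feeder markers 18 were at least 2-fold lower and 0 higher, with a median of -2.60. This list shares collagen genes such as Col1a1 and Col5a2 with the matrix list, so their counts are not separate results. The summed level of the 22 named feeder markers was 557 to 583 (in units of 1000) at passage 24, 1030 to 1050 at passage 4 and 3150 to 3260 in cEpi. This sum is linear, so bright members such as Vim, with a mean of 17.6 at passage 24 and 20.1 in cEpi, weigh most. All 22 were detected on at least 1 cEpi array, and Fap and Pdgfra on no passage 24 array. The cells that the labels place on fibroblast feeders thus carried the lower sum. The part of such cells in these results, and in those of the WNT, BMP, IGF and Hox lists, was not tested, and in bulk samples fewer cells of a type and less RNA per cell cannot be told apart. Of 11 factors of mesenchymal transition 7 were at least 2-fold lower and 0 higher, with a median of -1.97, and 3 of the 6 detected on all 6 arrays were lower, with a median of -0.99. Foxc2 changed by -3.38 ± 0.29, Snai1 by -2.68 ± 0.16 and Foxc1 was at least 9.46-fold lower.
In the insulin-like growth factor list 8 of 13 were at least 2-fold lower and 0 higher, led by Pappa, a protease of the binding proteins (-3.72 ± 0.78), the binding protein Igfbp7 (-3.25 ± 0.06), Igfbp5 (-2.33 ± 0.55) and the receptor Igf1r (-2.31 ± 0.06). Among imprinted genes 8 of 20 were at least 2-fold lower and 1 higher, and without the set-apart probes 5 of 17 were lower. Phlda2, a maternally expressed growth restrictor of the placenta, read 12.72, 12.78 and 12.61 at passage 24 and 17.43, 17.45 and 17.35 in cEpi, and fell by 4.71 ± 0.07. The 1 that was higher was Impact (1.58 ± 0.08), named after its values were seen.

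Genes of DNA repair and replication were higher at passage 24. Of 31 named repair genes 29 were tested, of which 20 were at least 2-fold higher and 2 lower, with a median of 1.30, and 27 of them were detected on all 6 arrays (18 higher, 2 lower, median 1.22). With no further normalisation 11 of the 29 were at least 2-fold higher. Xrcc5, the Ku80 subunit that binds broken DNA ends, read 15.05, 15.03 and 14.98 at passage 24 and 12.27, 12.21 and 12.23 in cEpi, and rose by 2.78 ± 0.05 (adjusted p = 7.35e-07). Parp1, a sensor of strand breaks, read 15.97, 15.88 and 16.04 at passage 24, against 13.49, 13.57 and 13.38 in cEpi, and rose by 2.49 ± 0.08. The mismatch repair genes Msh6 and Msh3 rose by 2.25 ± 0.06 and 2.25 ± 0.07. For these 4 genes the passage 4 means (14.29, 15.14, 17.88 and 11.55) lay below those at passage 24 (15.02, 15.97, 18.42 and 12.66) and above those in cEpi (12.24, 13.48, 16.17 and 10.41). Of 36 tested replication genes 34 were called higher and 0 lower, but 13 reached 2-fold, with a median of 0.88. With median scaling 6 reached 2-fold, and with no further normalisation 5. Mcm2, a subunit of the replicative helicase, read 15.90, 15.82 and 15.94 at passage 24 and 13.51, 13.52 and 13.55 in cEpi, and rose by 2.36 ± 0.06. Rpa2, of the single-strand binding complex, rose by 1.69 ± 0.08 and Pold1, a polymerase subunit, by 1.67 ± 0.06. Most rises stayed under 2-fold.
In the cell cycle list 11 of 39 were at least 2-fold higher and 4 lower, and with no further normalisation 3 were higher. The inhibitors of cyclin-dependent kinases were among those lower. Cdkn2b read 12.53, 12.63 and 12.60 at passage 24, against 15.11, 15.02 and 15.13 in cEpi, and fell by 2.50 ± 0.06, and Cdkn1a (p21) fell by 2.27 ± 0.08. Ccne1, cyclin E1, read 16.93, 17.09 and 17.03 at passage 24 and 14.93, 14.93 and 14.94 in cEpi, and rose by 2.09 ± 0.06, while Ccnd2, cyclin D2, fell by 1.89 ± 0.06.

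Ribosome biogenesis genes were mostly higher, while the median of the ribosomal proteins lay near that of all genes. Of 33 tested biogenesis genes 14 were at least 2-fold higher and 0 lower, with a median of 0.95, and with no further normalisation 6 were higher. Utp14a, which processes the small-subunit RNA, read 15.55, 15.58 and 15.72 at passage 24 and 12.82, 12.91 and 12.82 in cEpi, and rose by 2.77 ± 0.07. Mybbp1a, a nucleolar protein, rose by 2.29 ± 0.07 and Nolc1, a nucleolar chaperone, by 1.77 ± 0.08. Of 54 tested cytosolic ribosomal protein genes 1 was at least 2-fold higher and 0 lower, with a median of 0.09 that turned to -0.07 with median scaling and -0.26 with no further normalisation. The 1 was Rpl39l, the paralogue of Rpl39 known from testis and ES cells. It read 18.37, 18.50 and 18.60 at passage 24 and 13.45, 13.62 and 13.66 in cEpi, and rose by 4.91 ± 0.09, with means of 15.92 at passage 4 and 15.09 in ES. So its level at passage 24 was above all other groups. Rpl22 and Rps24 had probes called in opposite directions, at -1.02 and 0.32 and at 0.19 and -0.21.
Oxidative phosphorylation genes were likewise flat: 2 of 59 were at least 2-fold higher and 2 lower, with a median of -0.05. The 2 lower were Sdhb and Ndufb8, both probes of the passage 24 set. Of the 2 higher, Cox7b2, a testis-type subunit of cytochrome oxidase, was at least 9.21-fold higher, and Uqcrc1 rose by 1.08.

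All 16 tested genes of cholesterol synthesis were called lower, 7 of them at least 2-fold (12 with no further normalisation), with a median of -0.94 and a range of -2.12 to -0.25. Hsd17b7 read 11.96, 12.06 and 11.77 at passage 24 and 14.14, 13.94 and 14.08 in cEpi, and fell by 2.12 ± 0.10. Sc5d fell by 1.93 ± 0.08, Tm7sf2 by 1.62 ± 0.09 and Cyp51 by 1.53 ± 0.05, all enzymes that finish the sterol. Passage 4 and ES means of Cyp51, 14.33 and 14.18, were near the 14.74 at passage 24 and below the 16.27 in cEpi. In the list of nucleotide and serine synthesis 8 of 22 were at least 2-fold higher, with a median of 0.62, among them Shmt1, which feeds the folate cycle (2.47 ± 0.08), Gnmt (at least 4.45-fold) and Dhodh of pyrimidine synthesis (1.96 ± 0.07). The 1 lower was Psph, a probe of the passage 24 set. In the glycolysis and hypoxia list 5 of 25 were at least 2-fold higher (3 with no further normalisation) and 4 lower. These shares lay near those over all genes, 15.7% higher and 21.3% lower, and the list median was -0.11. The list as a whole thus showed little shift, and the members named next are single genes. The lactate exporter gene Slc16a3 changed by -2.13 ± 0.07 and the oxygen sensor gene Egln1 by -1.64 ± 0.08, while Pfkp, a phosphofructokinase, rose by 2.01 ± 0.09 and Pdk1, which keeps pyruvate out of mitochondria, by 1.91 ± 0.05. Of the lysosomal genes 11 of 27 were at least 2-fold lower and 3 higher, and 6 of the 21 detected on all 6 arrays were lower. Ctsh, a cathepsin whose probe follows the layouts, changed by -4.28 ± 0.15, and Lipa, the acid lipase, was at least 8.94-fold lower (adjusted p = 0.0133, passage 24 arrays at 8.59, 5.16 and 9.08). The cathepsin gene Ctse rose by 2.62 ± 0.08.

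Chromatin regulators moved in both directions. Of 21 tested Polycomb and Trithorax genes 11 were at least 2-fold higher and 2 lower, with a median of 1.01, and with no further normalisation 7 were higher. Mtf2, an accessory subunit of the H3K27 methyltransferase complex, read 16.79, 16.90 and 16.95 at passage 24 and 14.82, 14.75 and 14.91 in cEpi, and rose by 2.05 ± 0.07. Ezh1, a catalytic subunit, was at least 3.77-fold higher, and Wdr5, of the H3K4 methyltransferase complexes, rose by 1.86 ± 0.06. Bmi1, of the other Polycomb complex, fell by 1.90 ± 0.29. The main catalytic subunit Ezh2, named after its values were seen, changed by -0.27 ± 0.08 only. Of 30 tested genes in the list of other chromatin factors 5 were at least 2-fold higher and 5 lower (16.7% each), beside 15.7% and 21.3% over all genes. Its median was 0.34, and 0.03 with no further normalisation. Among ATPases of the BAF remodelling complex, Smarca4 (Brg1) and Smarca2 (Brm) moved in opposite directions. Smarca4 read 14.48, 14.37 and 14.49 at passage 24 and 12.28, 12.27 and 12.09 in cEpi, and rose by 2.23 ± 0.08. Smarca2 read 7.99, 8.58 and 7.24 at passage 24, with none detected, and 11.32, 11.47 and 11.47 in cEpi, and was at least 11.2-fold lower (adjusted p = 0.00017). The paired subunits Smarcc1 and Smarcc2 did the same, at 2.14 ± 0.09 and -1.78 ± 0.17, Smarcc2 being named after its values were seen. The ES form of the complex is known to hold the products of Smarca4 and Smarcc1, and the make-up of the complex was not tested here. Hmga2, a DNA-bending protein of the primed state and of mesenchyme, fell by 2.66 ± 0.06. In the MHC class I and interferon list 6 of 20 were at least 2-fold lower and 0 higher. B2m, the invariant chain of MHC class I, read 14.04, 14.02 and 13.90 at passage 24 and 16.39, 16.49 and 16.61 in cEpi, and fell by 2.51 ± 0.08.

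By chromosome, the median change of the tested genes ran from -0.17 to 0.15 on 18 autosomes and was 0.23 on chromosome 8 (465 genes, 21.3% at least 2-fold higher and 16.1% lower, beside 15.7% and 21.3% over all genes). Against the cEpi mean it was 0.22, 0.22 and 0.23 on the 3 passage 24 arrays. Passage 24 minus passage 4 gave 0.18 on chromosome 8 and passage 4 minus cEpi gave 0.03, comparisons that share arrays with the main one. With detection on all 6 arrays it was 0.28 over 401 genes. Median scaling lowered every chromosome, to 0.01 on chromosome 8, where chromosome 18 followed at -0.01. No test was run on chromosomes. Of the Y-linked genes Eif2s3y read 13.35, 13.39 and 13.34 at passage 24 and 15.61, 15.47 and 15.52 in cEpi, and fell by 2.17 ± 0.06, with 14.13 at passage 4 and 16.33 in ES. Uty was detected on no passage 24 array and was at least 5.79-fold lower, so both tested Y-linked genes were lower at passage 24.

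**Figure D5:**
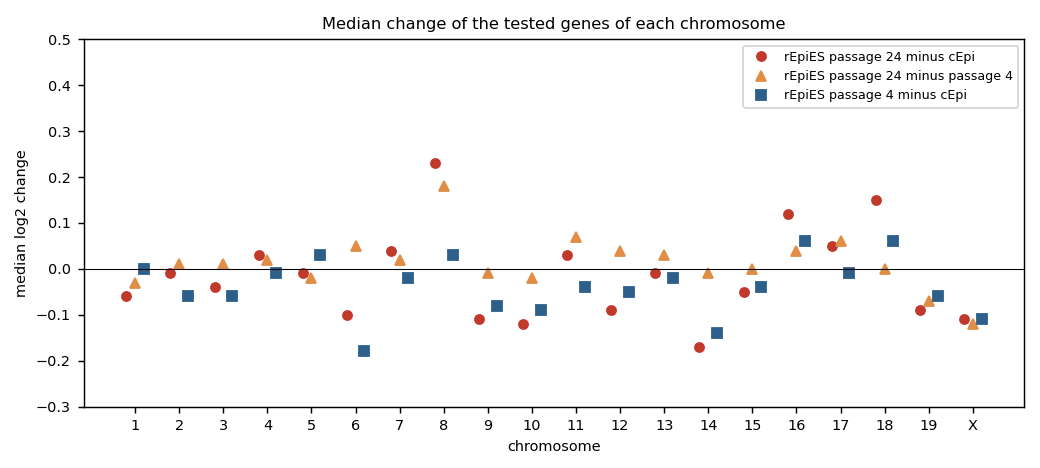
Median log2 change of the tested genes of each autosome and the X for rEpiES passage 24 minus cEpi (circles), rEpiES passage 24 minus passage 4 (triangles) and rEpiES passage 4 minus cEpi (squares). Chromosome 8 has the highest median in both comparisons of passage 24, at 0.23 and 0.18, and 0.03 at passage 4.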

How the data were processed

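Per the labels' protocols, Trizol RNA was made into digoxigenin-labelled cRNA. Each deposited file holds a linear signal intensity per probe, a signal-to-noise score, a quality code of unstated meaning and the authors' quantile-normalised log2 values. The background correction is not stated in any label or header. Per the file headers checked against the contents, score and code are exchanged in the cEpi and passage 4 files, so columns were read by content. Symbols came from a platform table (14411 probes with 1 symbol, 247 with several, 18354 with none) and were checked against RefSeq GRCm38.p6 by gene ID (14402 matched). Lefty1 and other genes without a named probe were not analysed here.

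Probes with a score of 3 or more on all 3 arrays of a side were tested with limma 3.58.1 (R 4.3.3; lmFit, eBayes, two-sided, no block; 4 residual and 1.77 prior degrees of freedom), with Benjamini-Hochberg adjustment over 14985 probes and calls at 0.05. Values are log2 changes ± SE. For undetected groups the fold bound takes, per array, the higher of the lowest detected signal and the probe's own. The procedure was tested on simulated data. A gene's brightest tested probe stood for it. Named genes are the 15 largest rises and falls, up to 4 leading called members of a list, members with opposite probes, and fixed anchors. The members and all 55 lists were chosen with earlier results of these data known, and lists were given no set test. The replicate numbers did not pair samples: deviations of same-numbered arrays correlated at 0.011, -0.038 and 0.024. Alternatives were the normalisation, detection filter, variance prior, samples fitted, quality codes, set-apart probes, a replicate block and each array left out. The number of arrays limits the precision.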

Additional observations from a re-analysis of the deposited data

How the results depend on the processing

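The count of called probes (11392) stayed within 1.5 times under each of the 17 alternatives, from 10628 to 11495 with each array left out and 10975 with the replicate block, which changed the call of 1 named gene, Myc. With each array left out the calls ranged from 5333 to 5878 higher and from 5295 to 5617 lower, and those of at least 2-fold from 2420 to 2568 higher and from 3011 to 3084 lower. With no further normalisation 3465 probes were called higher, 1522 of them at least 2-fold, and with detection on all 6 arrays 1604 were at least 2-fold lower, where fewer probes (11667) were tested. Cdh1 reversed with no further normalisation (-0.17, adjusted p = 0.183 by limma), and the cause was not tested. Of 235 named genes 230 to 235 kept their direction and call under each alternative that kept all of them. The others were Epha4, Myc, Dnmt3b, Lin28a, Eif1a and Tk1, each lost under at least 1 alternative, and Nodal, called lower at -0.28 with median scaling and -0.47 with no further normalisation. Leaving out the set-apart probes was chosen after seeing the data, in part. Low signal limits values near background, where folds are nominal bounds.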
